A study of Mus musculus with 8 samples.

Results

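The genes of oxidative phosphorylation, nuclear and mitochondrial, were followed in T cells of the NOD mouse pancreas. NOD is an inbred strain in which T cells attack the insulin-producing beta cells and diabetes follows. Members were taken by gene symbol: the protein genes of the mitochondrial genome (mt-Nd, mt-Co, mt-Cytb and mt-Atp), and nuclear genes whose symbols begin with Ndufa, Ndufb, Ndufc, Ndufs or Ndufv, with Cox4 to Cox8, with Uqcr, with Atp5, or with Sdha to Sdhd. The rule found 111 of 32285 features: 13 mt- genes and 98 nuclear genes. The nuclear genes were 78 structural subunits, 12 assembly factors and 8 isoforms known mainly from other tissues such as muscle and testis. T cells held at least 2 UMIs (unique molecular identifiers, each standing for 1 captured transcript) over Cd3d, Cd3e, Cd3g, Trac, Trbc1 and Trbc2, and were split by UMIs of Cd4 or of Cd8a and Cd8b1, whichever the cell held without the other.

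Oxidative phosphorylation passes electrons from NADH and succinate along complexes I, II, III and IV of the inner mitochondrial membrane to oxygen, and complex V, the ATP synthase, uses the proton gradient so built to make ATP. Complex II is built from nuclear genes alone, while the other complexes join nuclear subunits with core subunits encoded by mitochondrial DNA, so their assembly draws on both genomes. Quiescent T cells are known to rely on this pathway, and T cells that become effectors are known to add glycolysis to it.

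The study holds 8 libraries of 10x Genomics 3′ single-cell RNA, all labelled as female NOD mice that became diabetic spontaneously, aged 3 to 4 months in one label field and 3 to 5 months in another. The active and onset libraries came from untreated mice with blood glucose above 600 mg/dl and of 250 mg/dl, both harvested on day 1. New-onset mice (200 to 300 mg/dl) received daily vehicle, a mix of ethanol, Tween 20 and PEG300, or PPCA, which joins 50 mg/kg of nutlin-3, an MDM2 inhibitor, with 25 mg/kg of MK-1775, a WEE1 inhibitor; 1 vehicle and 1 PPCA library carry each of the day labels 2, 3 and 4. The cells were sorted as CD45+ CD3+ TcR-beta+ and frozen, and the number of mice behind each library was not stated, so the p-values below measure the spread between libraries, whatever its source. The 8 matrices held 80470 barcodes and 419420275 UMIs, between 36934580 and 67603740 UMIs per library. After the filters, 71729 T cells remained, 6393 to 11588 per library, of which 27709 were CD4 and 22824 were CD8 cells.

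The libraries did not all match the female label. The vehicle day 2, vehicle day 3, PPCA day 3 and PPCA day 4 libraries held 188 to 273 counts per 1000000 UMIs (CPM) of the Y-linked genes Ddx3y, Eif2s3y, Kdm5d and Uty, and the other 4 libraries at most 0.184 CPM. Counts of called members between gates and between states are therefore also given for each set of 4 libraries. Between 14 and 41 barcodes were shared by any pair of libraries, at most 0.431% of the smaller one. Of the marker lists of other cell types, the NK-cell list summed to 0.52 to 3.79 CPM in the T cells. The myeloid list summed to 118 to 143 CPM, of which Cst3 held 117 to 143 CPM, while Lyz2, Csf1r and C1qa reached at most 1.25, 0.106 and 0.143 CPM. Haemoglobin and the other erythroid genes summed to 70.5 CPM in the active library and to at most 6.71 CPM elsewhere, and digestive enzyme and hormone genes of the pancreas to 12.4 to 110 CPM.

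The 13 mt- genes took a larger share of T-cell UMIs than the 78 nuclear subunits in 8 of 8 libraries, and they varied more between libraries. The 13 mt- genes held 4.26% of UMIs in the active library and 3.74% in the onset library. They held 2.82%, 4.68% and 2.79% in vehicle on days 2, 3 and 4, and 2.06%, 3.13% and 2.47% under PPCA. The active and vehicle day 3 libraries were highest and PPCA day 2 lowest, a span of 2.27-fold. The 78 nuclear subunits held 1.54% and 1.73% in active and onset, 1.65%, 1.64% and 1.68% in vehicle, and 1.73%, 1.67% and 1.52% under PPCA, a span of 1.14-fold. Their ratio, which no scaling of the library can change, ran from 1.20 in PPCA day 2 to 2.86 in vehicle day 3.

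The contrast in spread held in each complex that has both kinds of subunit. The mt- genes of complex I varied 1.86-fold over the 8 libraries and its 37 nuclear subunits 1.16-fold. For mt-Cytb, the haem-bearing core of complex III, the span was 2.16-fold against 1.16-fold for 8 nuclear subunits. Complex IV showed the widest mitochondrial span of these complexes, 2.55-fold over mt-Co1, mt-Co2 and mt-Co3, its catalytic core, against 1.17-fold over 12 nuclear subunits. In complex V the values were 2.24-fold for mt-Atp6 and mt-Atp8 and 1.15-fold for 17 nuclear subunits. Complex II, with 4 nuclear subunits and no mitochondrial one, varied 1.22-fold.

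Among nuclear subunits, levels of the most counted gene of each complex moved little from library to library, and these UMI counts are not compared between genes. Ndufa13 of complex I ranged from 242 to 349 CPM, Sdhb, the iron-sulphur subunit of complex II, from 74.5 to 106 CPM, and Uqcrh, the hinge protein of complex III, from 563 to 635 CPM. Cox8a of complex IV ranged from 503 to 602 CPM and Atp5e, the epsilon subunit of ATP synthase, from 656 to 838 CPM. Atp5g1, Atp5g2 and Atp5g3 encode the same mature subunit c, which forms the rotor ring. Each was present in every library, at 199 to 252 CPM, 367 to 542 CPM and 181 to 212 CPM.

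The isoforms of other tissues were at or near 0. Cox6b2, known from testis, reached 1.11 to 1.57 CPM and Cox7a1, known from heart and muscle, 0.159 to 0.46 CPM. Cox7b2, Cox8b and Cox8c had no UMI in any library. With 3 counts as the floor, 0 counts allow up to 0.0884 CPM in the shallowest library, a limit that covers counting error only.

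Cell state separated the mitochondrial from the nuclear members in every library. In effector-type CD8 cells the 13 mt- genes took a smaller share of UMIs than in naive-type CD8 cells of the same library, and the 78 nuclear subunits a larger one. Naive-type cells held at least 1 UMI over a short list of naive-cell genes, Ccr7 among them, and none of Ccl5, Nkg7, Cxcr6 and S100a4. Effector-type cells held at least 2 UMIs over the last 4 genes and none over the naive-cell list. No member enters these gates, and cells outside both were left out: 2503 naive-type and 3795 effector-type CD8 cells were compared.

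In naive-type CD8 cells the mt- share was 4.68% in active, 3.86% in onset, 3.27%, 5.18% and 2.86% in vehicle on days 2, 3 and 4, and 2.23%, 3.24% and 2.46% under PPCA. In effector-type CD8 cells it was 3.40% and 2.86% in active and onset, 2.20%, 4.40% and 2.51% in vehicle, and 1.64%, 2.72% and 2.07% under PPCA. The effector-type value was below the naive-type value in 8 of 8 libraries, although the libraries overlap widely between states. The within-library log2 ratio averaged -0.35 (SD 0.14, n = 8), and that of the nuclear subunits averaged 0.19 (SD 0.04, n = 8), higher in 8 of 8. The mitochondrial to nuclear ratio was lower in effector-type CD8 cells in 8 of 8 libraries, with a mean log2 ratio of -0.54 (SD 0.13).

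**Figure D1:**
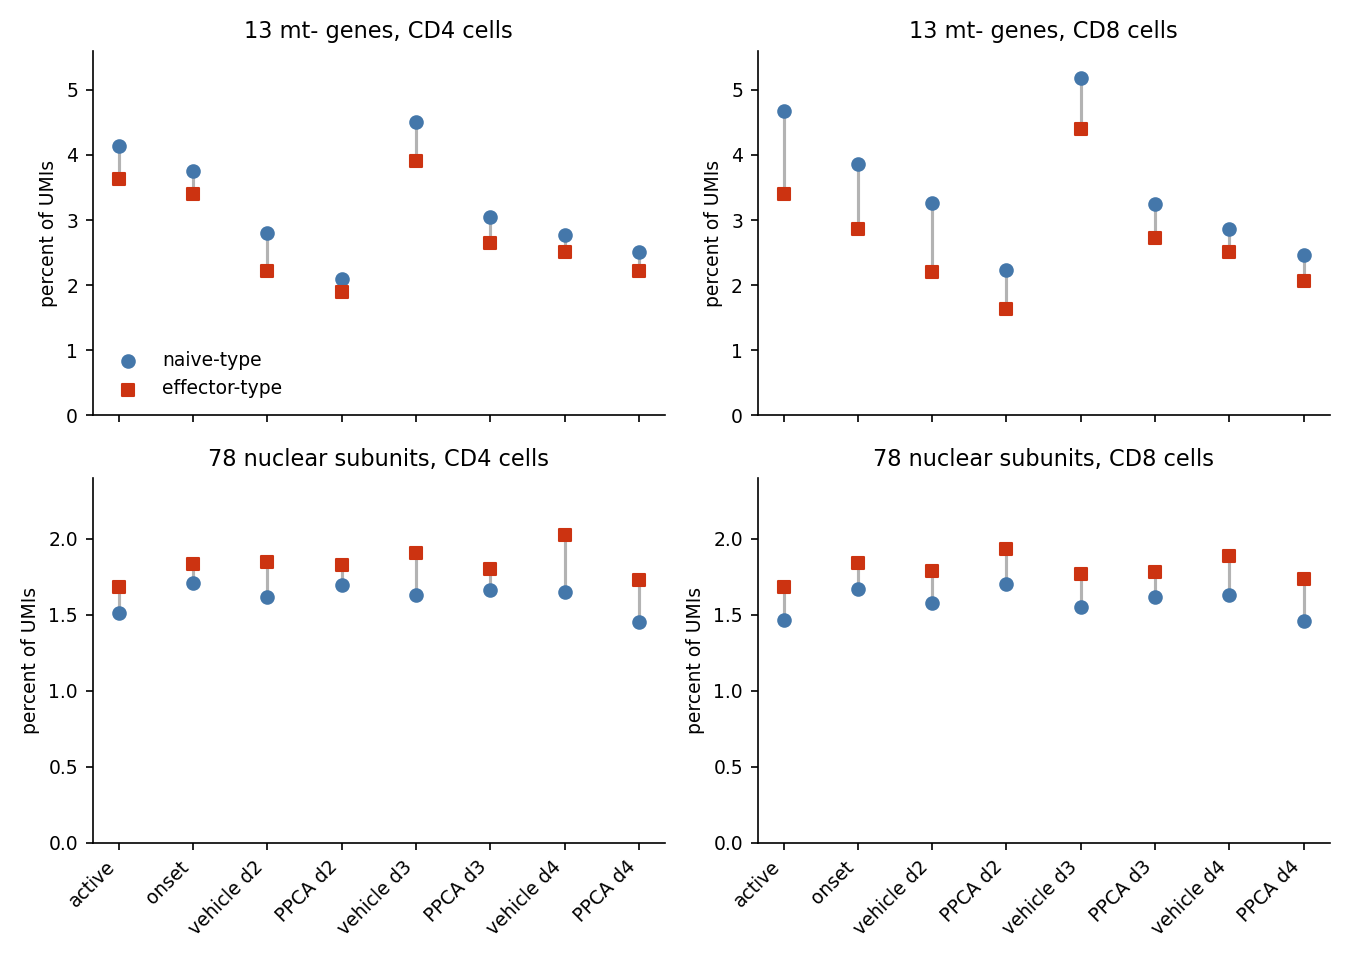
Percent of UMIs taken by the 13 mt- genes (top) and the 78 nuclear subunits (bottom) in naive-type (circles) and effector-type (squares) cells of each library, CD4 cells left and CD8 cells right, d2 to d4 being the day labels. Lines join the states of 1 library; the squares lie below the circles in all top panels and above them in all bottom panels.

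Gene by gene, 12 of the 13 mt- genes fell in effector-type CD8 cells in edgeR's quasi-likelihood test with the library as a block (Benjamini-Hochberg adjusted p under 0.05 over 8370 genes). Over all genes tested, 41.8% passed, 19.7% higher and 22.1% lower, and of the 102 members tested 22 were higher and 27 lower. The median log2 change of the mt- genes was -0.50, against -0.02 for the nuclear subunits and -0.02 for all genes. mt-Cytb had CPM of 1774 (lowest), 2330 (median) and 3741 (highest) in naive-type cells and 1293, 1802 and 3095 in effector-type cells, and fell in 8 of 8 libraries (log2 change -0.62, SE 0.05, adjusted p = 5.76e-11, edgeR). mt-Atp6, the proton channel subunit of ATP synthase, changed by -0.59 (SE 0.05). mt-Co1, the catalytic subunit of complex IV, had the smallest change among the 12, -0.43 (SE 0.05). mt-Nd6, the protein gene on the other strand of the mitochondrial genome, did not pass (-0.16, SE 0.08, adjusted p = 0.0903, edgeR).

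The 78 nuclear subunits split in CD8 cells, 20 higher and 13 lower, a share of calls near the 41.8% of all genes. Complex I had 10 higher and 6 lower of 37, complex IV 6 and 1 of 12, complex V 3 and 4 of 17, complex III 1 and 2 of 8, and complex II none of 4. Cox5a, a subunit that binds the matrix side of complex IV, had 169, 222 and 243 CPM (lowest, median, highest) in naive-type cells and 305, 325 and 417 CPM in effector-type cells. The states did not overlap for Cox5a, which rose by 0.49 on the log2 scale (SE 0.06, adjusted p = 1.2e-07, edgeR). Ndufb7 (0.39, SE 0.06) and Ndufb8 (0.38, SE 0.06), accessory subunits of the complex I membrane arm, and Uqcrb (0.32, SE 0.06) of complex III also rose. Cox8a, a small membrane subunit of complex IV, rose by 0.26 (SE 0.05).

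Cox7a2l was the 1 nuclear subunit of complex IV that fell in CD8 cells. Its protein links complexes III and IV in supercomplexes, and it is counted here with complex IV. It had 379, 464 and 545 CPM (lowest, median, highest) in naive-type CD8 cells and 262, 332 and 417 CPM in effector-type cells, was lower in 8 of 8 libraries and fell by 0.64 on the log2 scale (SE 0.06, adjusted p = 8.23e-11, edgeR). Of the assembly factors, Ndufaf2 of complex I rose by 0.65 (SE 0.14) at a mean of 23.5 CPM. Sdhaf1, which inserts iron-sulphur clusters into Sdhb, fell by 0.72 (SE 0.12) and was lower in 7 of 8 libraries.

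In CD4 cells the mt- genes fell as well. In 1019 effector-type against 19671 naive-type CD4 cells, 12 of 13 mt- genes fell in edgeR's test, with a median log2 change of -0.44. The background was 36.4% of 9953 genes, 17.5% higher and 18.9% lower, and members counted 8 higher and 35 lower of 103. mt-Atp6 had 4418, 7206 and 10796 CPM in naive-type CD4 cells and 3847, 5723 and 8755 CPM in effector-type cells, lower in 8 of 8 libraries (-0.52, SE 0.04, adjusted p = 7.46e-14, edgeR). mt-Nd6 again did not pass (-0.14, SE 0.09, adjusted p = 0.269, edgeR). The mt- share had a within-library log2 ratio of -0.19 (SD 0.06) and the nuclear share of 0.18 (SD 0.07), the first lower and the second higher in 8 of 8 libraries. The ratio of the mt- share was nearer to 0 in CD4 than in CD8 cells of the same library in 8 of 8 libraries, with means of -0.19 and -0.35.

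Nuclear subunits in CD4 cells counted 7 higher and 20 lower of 78, with a median of -0.08 against -0.03 for all genes and a share of calls near the 36.4% of all genes. Complex V had none higher and 8 lower of 17, complex I 3 and 8 of 37, complex IV 3 and 1 of 12, complex II 0 and 2 of 4, and complex III 1 and 1 of 8. Ndufb7 rose by 0.32 (SE 0.06), Ndufb8 by 0.31 (SE 0.07), Cox6b1, which faces the intermembrane space, by 0.27 (SE 0.06), and Uqcrb by 0.25 (SE 0.06). Cox7a2l fell by 0.71 on the log2 scale (SE 0.06, adjusted p = 5.34e-13, edgeR) and was lower in 8 of 8 libraries. The complex I assembly factor Ndufaf4 fell by 0.49 (SE 0.10). Sdhaf2, an assembly factor of complex II, rose by 0.31 (SE 0.13, adjusted p = 0.0496, edgeR) and lost its call in 14 of 22 alternatives.

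Scaling turned the split of the nuclear subunits and changed the size of the mt- fall. Scaling by library totals alone, in place of the trimmed mean of M-values (TMM), moved the median of all genes to 0.15 in CD8 and 0.21 in CD4 cells. Members then counted 44 higher and 14 lower in CD8 cells and 47 higher and 12 lower in CD4 cells, with nuclear subunits at 38 and 1, and 43 and 1. For complexes I to V in turn, nuclear subunits counted 18 and 0, 0 and 0, 2 and 0, 10 and 1, and 8 and 0 in CD8 cells. In CD4 cells they counted 16 and 0, 2 and 0, 5 and 0, 11 and 1, and 9 and 0, so the splits by complex given above depended on the scaling. All genes split likewise, 34.8% higher and 12.3% lower in CD8 and 34.6% higher and 8.46% lower in CD4 cells. The medians of the nuclear subunits were then 0.16 and 0.17, beside those shifts of all genes. The mt- genes had 0 higher, with 12 lower in CD8 cells (median -0.33) and 10 lower in CD4 cells (median -0.19), and mt-Nd6 turned to 0.01 and 0.10. Transcripts of cytosolic ribosomal proteins, 31.4% to 35.9% of T-cell UMIs, moved with the states as well: 81 of 87 were lower in CD8 and 80 of 87 in CD4 effector-type cells, with medians of -0.59 and -0.74, and their part in the shares above was not tested. Genes of the early response to tissue dissociation counted 1 higher and 4 lower of 8 tested in CD8 cells (median -0.21) and 2 higher and 2 lower of 10 in CD4 cells (median -0.08). Among them Fosb rose by 0.66 (SE 0.12) and 0.95 (SE 0.09), and Jun fell by 0.32 (SE 0.09) and by 0.84 (SE 0.11). Of the markers of other cell types, Cst3 rose by 0.55 (SE 0.07) in CD8 and 0.64 (SE 0.07) in CD4 cells. Cd79b, a B-cell marker, fell by 1.04 (SE 0.23) in CD8 cells at a mean of 9.52 CPM and rose by 2.51 (SE 0.45) in CD4 cells at a mean of 4.88 CPM. Of 8 pancreas genes tested in CD4 cells, Prss2 fell by 0.80 (SE 0.29) and Clps rose by 0.68 (SE 0.27), and none of 3 passed in CD8 cells. The part of these genes in the state changes was not tested.

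The counts of lower mt- genes were as large with equal UMIs per cell and without mitochondria-rich cells. Effector-type CD8 cells were shallower, with median UMIs of 3255 to 4994 per library against 3936 to 5776. With cells thinned to 2000 UMIs and shallower ones left out (3626 of 3795 effector-type and 2361 of 2503 naive-type CD8 cells, and 990 of 1019 and 19470 of 19671 CD4 cells remained), 12 mt- genes still fell in each gate, with medians of -0.48 in CD8 and -0.45 in CD4 cells, beside 36.3% and 26.1% of all genes changed. The summed UMIs of the states still differed with their cell numbers. The states had been gated on the full counts, so thinning did not equalise the depth at which cells entered them. With cells of 5% or more mt- UMIs removed the counts were again 12 and 12, with medians of -0.45 and -0.46, beside 40.4% and 35.7%. The 4 libraries without Y-linked transcripts gave 12 and 11 lower mt- genes, and the 4 libraries with them 12 and 12. Calls over all members in these sets were 32 and 33 in CD8 cells, beside 33.0% and 27.1% of all genes, and 23 and 28 in CD4 cells, beside 23.4% and 24.8%.

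**Figure D2:**
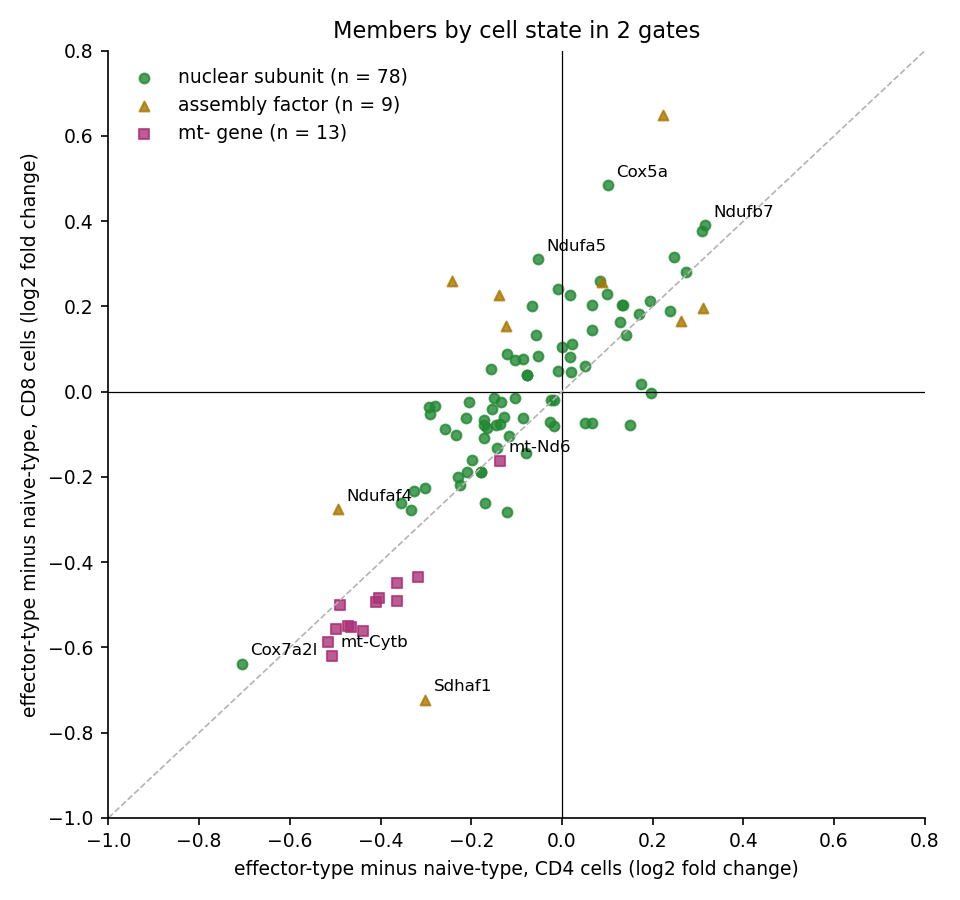
Log2 fold change of effector-type against naive-type cells in CD4 cells (x axis) and CD8 cells (y axis) for members averaging at least 10 CPM in both comparisons; the dashed line marks equal change. The mt- genes (squares) group below 0 on both axes with mt-Nd6 nearest to 0, Cox7a2l lies among the lowest nuclear subunits, and Cox5a and Ndufa5 lie above the line.

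A direct test of the difference between gates was added after the data had been seen. Of 103 members, 2 had a larger state change in CD8 than in CD4 cells and none a smaller one, beside 8.61% of 9016 genes, 3.37% higher and 5.24% lower. Cox5a differed by 0.37 on the log2 scale (SE 0.09, adjusted p = 0.00284, edgeR): its within-library log2 ratio of effector-type to naive-type CPM ran from 0.42 to 0.91 in CD8 cells and from 0.14 to 0.64 in CD4 cells, above 0 in 8 of 8 libraries in both. Ndufa5, a subunit of the complex I peripheral arm, differed by 0.35 (SE 0.11, adjusted p = 0.0421, edgeR) and lost its call in 9 of 18 alternatives, among them those without vehicle day 2, vehicle or PPCA day 3, or vehicle or PPCA day 4. Sdhaf4, an assembly factor of complex II, had the next lowest p and did not pass (0.49, SE 0.16, adjusted p = 0.0544, edgeR). No mt- gene passed this test (0 of 13, of which 1 had an unadjusted p under 0.05 in edgeR, mt-Co1 at -0.13, SE 0.06; DESeq2 called 2 members, Cox5a and Atp5j2, and no mt- gene, beside 7.09% of genes). With library totals alone 4 members passed, beside 9.06% of genes: Cox5a (0.31, SE 0.09), and mt-Co1 (-0.19, SE 0.05), mt-Nd4 (-0.19, SE 0.06) and mt-Cytb (-0.19, SE 0.06), whose fall was then larger in CD8 than in CD4 cells.

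Other mitochondrial gene groups can be set beside the members in the same fits, in which 41.8% of all genes passed in CD8 and 36.4% in CD4 cells. Of the electron carriers and transporters, 2 of 14 rose and 4 fell in effector-type CD8 cells. Etfb, which hands electrons from fatty acid oxidation to the chain, rose by 0.94 (SE 0.08) and Ucp2, an inner-membrane carrier, by 0.74 (SE 0.06), while cytochrome c (Cycs) fell by 0.37 (SE 0.08). Genes that maintain mitochondrial DNA and process its RNA counted 0 higher and 6 lower of 18 in CD8 cells and 0 and 6 of 21 in CD4 cells. Among these Polg2, the accessory subunit of the mitochondrial DNA polymerase, fell by 1.04 (SE 0.16) in CD8 and by 0.82 (SE 0.16) in CD4 cells, and Lrpprc, which stabilises mitochondrial mRNA, fell by 0.53 (SE 0.12) and by 0.54 (SE 0.17).

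The mitochondrial ribosome counted 5 higher and 11 lower of 77 in CD8 cells and 5 and 16 of 78 in CD4 cells. The tricarboxylic acid cycle and pyruvate dehydrogenase counted 1 and 4 of 17, and 1 and 5 of 17. There Idh2, the NADP-dependent isocitrate dehydrogenase, fell by 1.61 (SE 0.14) in CD8 and by 1.30 (SE 0.17) in CD4 cells, while Idh3a, of the NAD-dependent enzyme, rose by 0.35 (SE 0.10) and by 0.66 (SE 0.12). Of the biogenesis regulators Myc fell in both gates, by 0.58 (SE 0.09) and by 0.99 (SE 0.15), and Hif1a, the oxygen-regulated transcription factor, rose in CD4 cells by 1.57 (SE 0.08). Assembly factors outside the symbol rule counted 3 and 6 of 30, and 2 and 4 of 33, with Cox17, a copper carrier to complex IV, higher by 0.54 (SE 0.06) in CD8 and by 0.43 (SE 0.06) in CD4 cells.

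Between the CD8 and CD4 gates as a whole, differences were smaller and mostly in 1 direction. Of 104 members tested in 8 libraries, 46 were higher and 4 lower in CD8 cells in edgeR's test with the library as a block, beside 46.3% of 11610 genes, 23.3% higher and 23.0% lower. The median over members was a log2 difference of 0.06. With library totals alone the split was 23 higher and 12 lower, beside 17.6% and 30.2% of all genes. Calls in either direction numbered 29 in DESeq2 (beside 34.2%) and 29 with cells thinned to 2000 UMIs (beside 35.7%). The libraries without Y-linked transcripts gave 16 (beside 32.9%) and those with them 36 (beside 34.2%).

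Between the whole gates, the mitochondrial genes higher in CD8 cells were mainly those of complex I. mt-Nd3, which forms part of the complex I membrane arm, had 151, 286 and 521 CPM (lowest, median, highest) in CD4 cells and 158, 323 and 669 CPM in CD8 cells. It was higher in CD8 cells of 8 of 8 libraries (0.28, SE 0.03, adjusted p = 3.43e-06, edgeR), although the ranges of the gates overlap. mt-Nd2 (0.21, SE 0.03), mt-Nd1 (0.18, SE 0.03), mt-Nd4 (0.17, SE 0.03), mt-Nd4l (0.17, SE 0.03) and mt-Nd5 (0.12, SE 0.03) were also higher. Outside complex I, mt-Co3 passed (0.09, SE 0.03). mt-Co1, mt-Co2, mt-Atp6, mt-Atp8 and mt-Cytb did not, nor did mt-Nd6 of complex I, with differences between -0.05 and 0.05. Of 24 alternatives, mt-Co3 lost its call in 5, mt-Nd5 in 4, mt-Nd4l in 3, and mt-Nd1, mt-Nd2, mt-Nd3 and mt-Nd4 in 2 each. mt-Co2 gained a call in 2, and mt-Atp6 and mt-Cytb in 1 each. In the libraries without Y-linked transcripts mt-Nd4l, mt-Nd5 and mt-Co3 did not pass, while in those with them mt-Co2 also passed (0.06, SE 0.02). The summed complex I mt- share was higher in CD8 cells of 8 of 8 libraries (mean log2 ratio 0.14, SD 0.07), and the sum over all 13 mt- genes in 5 of 8 (0.03, SD 0.06).

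Nuclear subunits of complex IV were higher in CD8 cells in 9 of 12 cases and lower in none, with a median difference of 0.09. Cox5a had 182, 221 and 246 CPM (lowest, median, highest) in CD4 cells and 218, 255 and 304 CPM in CD8 cells, higher in 8 of 8 libraries (0.29, SE 0.02, adjusted p = 2.31e-08, edgeR). Cox8a had 463, 519 and 564 CPM in CD4 cells and 557, 622 and 689 CPM in CD8 cells, also higher in 8 of 8 (0.29, SE 0.02, adjusted p = 7.61e-09, edgeR). The gates overlap only slightly for Cox8a and more for Cox5a. Complex I counted 16 higher and 1 lower of 37, with Ndufa10 highest (0.22, SE 0.03), complex III 4 and 0 of 8, complex V 6 and 1 of 17, and complex II 1 and 1 of 4. With library totals alone these counts were 6 and 0 in complex IV, 5 and 5 in complex I, 1 and 2 in complexes III, V and II each, so the mostly 1-sided split outside complex IV depended on the scaling. The assembly factor Ndufaf7 was higher by 0.22 (SE 0.05) at a mean of 14.0 CPM, and lost its call in 5 of 24 alternatives.

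The members lower in CD8 cells were Sdhaf1, Ndufa3, Atp5md and Sdhb. Sdhaf1 had 27.9, 42.8 and 85.5 CPM in CD4 cells and 20.4, 29.0 and 45.9 CPM in CD8 cells, lower in 8 of 8 libraries (-0.57, SE 0.05, adjusted p = 2.34e-07, edgeR). Ndufa3 (-0.09, SE 0.02), Atp5md (-0.08, SE 0.02) and Sdhb (-0.07, SE 0.03) differed by less than 0.1. Sdhb lost its call in 12 of 24 alternatives and turned to 0.06 in 1, Atp5md lost it in 4, and Ndufa3 lost it in 2 and turned to 0.03 in 1. In the libraries without Y-linked transcripts 1 of these 4 passed, Sdhaf1. Of the subunit c genes, Atp5g1 (0.12, SE 0.03) and Atp5g2 (0.09, SE 0.02) were higher in CD8 cells and Atp5g3 did not pass (0.01, SE 0.03). Among other groups, Slc25a4, which exchanges ADP and ATP across the inner membrane, was higher in CD8 cells by 0.81 (SE 0.03), and Polg, the catalytic subunit of the mitochondrial DNA polymerase, was lower (-0.72, SE 0.04).

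**Figure D3:**
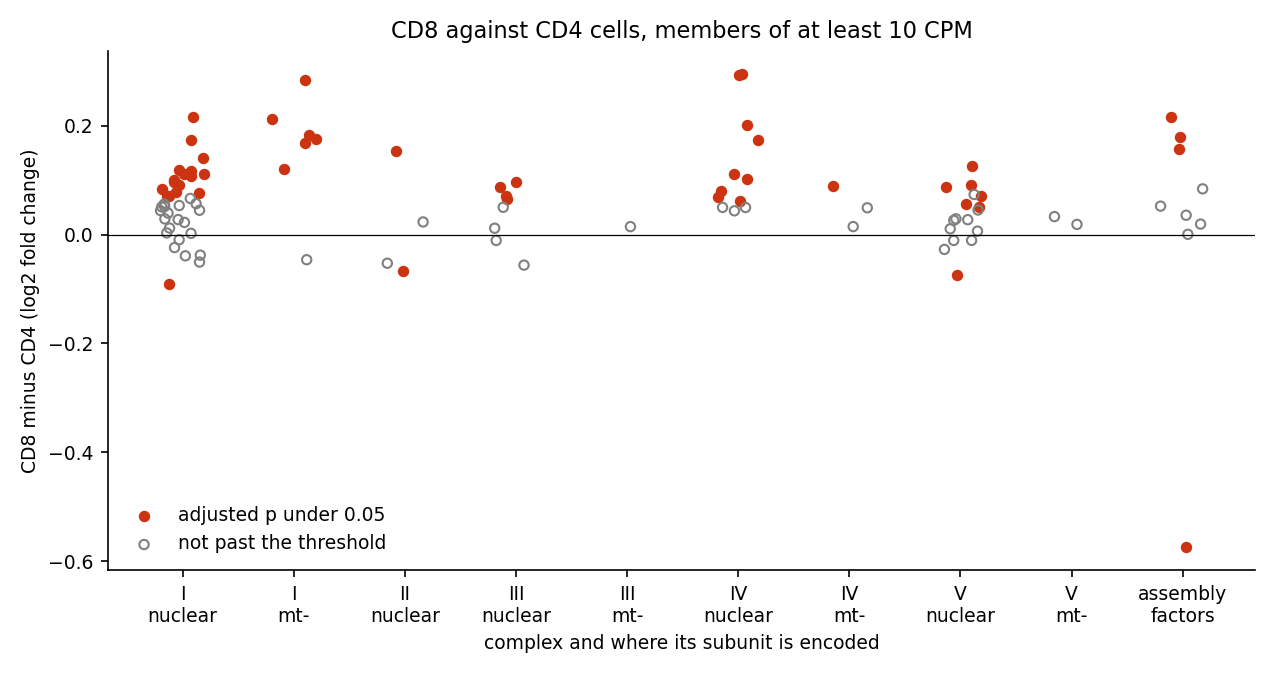
Log2 difference of CD8 from CD4 cells for each member averaging at least 10 CPM, by complex and by where the subunit is encoded; filled red points passed edgeR's adjusted p of 0.05 and open points did not. The mt- genes of complex I and the nuclear subunits of complex IV lie mostly above 0, and Sdhaf1 is the lowest point, among the assembly factors.

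Inside each state the gates were compared in separate fits. Among naive-type cells, 10 mt- genes were higher in CD8 cells and no nuclear subunit was, while 3 nuclear subunits were lower, beside 12.2% of all genes changed. Of these mt- genes, mt-Co2 (0.10), mt-Co3 (0.12), mt-Atp6 (0.09) and mt-Cytb (0.10) lie outside complex I. Cox5a (0.02, SE 0.04), Cox8a (0.05, SE 0.03) and Sdhaf1 (-0.19, SE 0.09, adjusted p = 0.162, edgeR) did not pass there. Among effector-type cells 4 nuclear subunits were higher, Cox5a by 0.39, Ndufa5 by 0.35, Ndufs7 by 0.27 and Cox8a by 0.21, no mt- gene passed, and Sdhaf1 was lower (-0.58, edgeR), beside 17.2% of all genes. Counts of separate fits do not show that the states differ: the direct test above called Cox5a and Ndufa5 and no mt- gene, Cox8a or Sdhaf1. The CD8 gate held proportionally more effector-type cells than the CD4 gate, as the cell numbers above show, and the part of this mix in the difference between whole gates was not tested. Genes of the early response to tissue dissociation were lower in CD8 cells in 8 of 10 cases, with a median of -0.54, and Cd79b was higher by 3.76 (SE 0.13) at a mean of 10.9 CPM. Cd79a (-0.81, SE 0.26, mean 0.67 CPM) and the haemoglobin gene Hbb-bs (-2.78, SE 0.53, mean 7.27 CPM) were lower. Their part was not tested either.

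The treatment comparison asked whether PPCA, against vehicle of the same day, changed the members. No member passed in all T cells, 0 of 105, beside 0.0% of 13230 genes in edgeR's test with the day as a block and 2 residual degrees of freedom. At an unadjusted p under 0.05 there were 22 members among 1068 genes, 11 of 13 mt- genes and 11 of 78 nuclear subunits. DESeq2 called 7 members in the same design, all mt- genes, beside 0.506% of genes. The split by gate gave 0 of 104 members in CD4 cells (beside 0.0% of 11612 genes, 19 members among 781 genes at an unadjusted p under 0.05, 8 in DESeq2 beside 0.301%) and 0 of 104 in CD8 cells (beside 0.0172% of 11615 genes, 26 members among 924 genes at an unadjusted p under 0.05, 7 in DESeq2 beside 0.353%).

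The mt- genes had both lower and higher values under PPCA, and none passed in edgeR. mt-Co3, a core subunit of complex IV, had 3519, 8478 and 4040 CPM in vehicle on days 2, 3 and 4 and 1989, 4208 and 2960 CPM under PPCA. PPCA was lower on 3 of 3 days although the arms overlap, and the fitted change was -0.84 (SE 0.14, adjusted p = 0.336, edgeR; 2.55e-06 in DESeq2). mt-Atp8, a small membrane subunit of ATP synthase, had 584, 276 and 341 CPM in vehicle and 759, 505 and 578 CPM under PPCA. PPCA was higher on 3 of 3 days, with the vehicle day 2 library inside the PPCA range, and the fitted change was 0.59 (SE 0.11, adjusted p = 0.336, edgeR; 0.000398 in DESeq2). mt-Nd4l, of complex I, had 561, 326 and 557 CPM in vehicle and 831, 629 and 751 CPM under PPCA, so that the arms did not overlap (0.57, SE 0.10, adjusted p = 0.336, edgeR; 0.000579 in DESeq2).

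In all, 9 mt- genes were lower under PPCA on 3 of 3 days, beside 5.38% of 7273 genes averaging at least 10 CPM, and 3 were higher on 3 of 3 days (mt-Atp8, mt-Nd4l and mt-Nd5), beside 26.0%, a background that 3 of 13 does not exceed. The remaining gene, mt-Nd4, was lower on days 2 and 3 and at a log2 ratio of 0.01 on day 4. The ratios for mt-Nd1, of the complex I membrane arm, were -0.70, -0.96 and -0.06 on days 2, 3 and 4, and for mt-Nd3 -0.87, -0.79 and -0.13, so day 4 stood nearest to 0 for these genes, which were chosen after their values were seen. Other genes ordered the days differently: mt-Nd2 had -0.35, -0.88 and -0.37, and mt-Nd6 -0.13, -0.13 and -0.22, farthest from 0 on day 4. The summed mt- share had log2 ratios of -0.45, -0.58 and -0.17 (mean -0.40, SD 0.21). The summed share of the nuclear subunits, also unscaled, had 0.07, 0.03 and -0.15 (mean -0.02, SD 0.11), within its own spread of 0. Of 78 nuclear subunits, 13 were lower on 3 of 3 days and 6 were higher, beside the same 5.38% and 26.0% of genes. In edgeR's fit their median log2 change was -0.11, beside -8.6e-05 for all genes, and none passed.

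**Figure D4:**
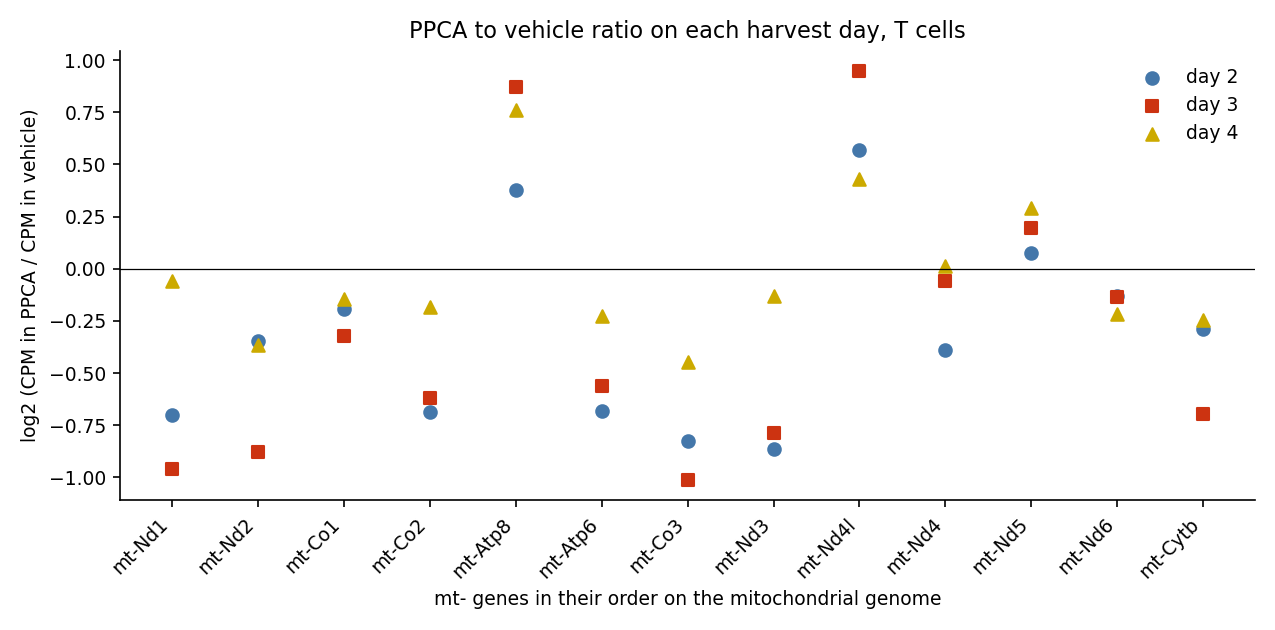
Log2 ratio of CPM in PPCA to CPM in vehicle for each of the 13 mt- genes, in T cells, with 1 point per day label (circles day 2, squares day 3, triangles day 4) and genes in their order on the mitochondrial genome. mt-Atp8, mt-Nd4l and mt-Nd5 lie above 0 on every day, mt-Nd4 straddles 0, and the other 9 genes lie below 0 on every day.

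Without the day 4 pair, edgeR called 6 members in T cells, mt-Nd1, mt-Co2, mt-Atp6, mt-Co3 and mt-Nd3 lower and mt-Nd4l higher, beside 0.497% of all genes. Without the vehicle library of day 4 alone it called 6 members in T, 3 in CD4 and 12 in CD8 cells, beside 0.474%, 0.38% and 3.09% of genes. Without the PPCA library of day 4 alone it called 5, 3 and 11, beside 0.484%, 0.335% and 3.12%. With the day as a block, a day left with a single library adds nothing to the comparison of the arms. These 3 omissions are therefore the same comparison of days 2 and 3, with fewer residual degrees of freedom than the full fit. Without the pair of day 2 or of day 3, edgeR called 0 members in T, CD4 and CD8 cells, beside at most 0.00858% of genes. With Y-linked transcripts as a further factor edgeR called 8 in T cells, beside 1.51% of genes. Of these, mt-Atp8 and mt-Nd4l were higher and mt-Nd1, mt-Nd2, mt-Co2, mt-Atp6, mt-Co3 and mt-Nd3 lower. That fit also leaves fewer residual degrees of freedom than the main fit. Only days 2 and 4, where the arms differ in these transcripts, inform the added factor. Day 3 is the pair in which both libraries held Y-linked transcripts, and its mt-Co3 log2 ratio was -1.01, against -0.82 on day 2 and -0.45 on day 4. The dissociation genes varied within both arms, from 2325 to 4614 CPM in vehicle and from 1307 to 6715 CPM under PPCA, and their part was not tested.

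Few nuclear members separated the arms. In T cells Ndufs3, a core subunit of complex I, had 70.6, 72.8 and 72.1 CPM in vehicle and 86.9, 73.4 and 79.4 CPM under PPCA. Cox8a had 557, 532 and 544 CPM in vehicle and 602, 574 and 583 CPM under PPCA. Both lay above vehicle without overlap, as did mt-Nd4l and mt-Nd5, so 4 members did so, beside 2.08% of genes. Cox6a1, of complex IV, had 187, 191 and 182 CPM in vehicle and 159, 176 and 138 CPM under PPCA, and with Ndufa9 and Atp5a1, the alpha subunit of ATP synthase, it lay below vehicle without overlap, beside 0.784% of genes. None of these passed in T cells in edgeR's test with the day as a block (Cox6a1 -0.33, SE 0.09, adjusted p = 0.533, edgeR), while DESeq2 called mt-Nd4l, as given above. In CD8 cells Cox6a1 passed with Y-linked transcripts as a factor (-0.34, SE 0.08, adjusted p = 0.0492, edgeR), and Ndufa9 without the day 4 pair (-0.40, SE 0.12, adjusted p = 0.03, edgeR). The change under PPCA did not differ detectably between CD8 and CD4 cells: 0 of 104 members passed, beside 0.00819% of 12206 genes in edgeR, 1 had an unadjusted p under 0.05 (mt-Nd6, -0.20, SE 0.07), and DESeq2 called 0.

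Neighbouring mitochondrial genes that share a transcript separated across libraries. mt-Atp8 and mt-Atp6 lie in overlapping frames and are known to stay joined in 1 mature mRNA, as are mt-Nd4l and mt-Nd4. The overlaps are shown because the UMIs of each pair did not keep a fixed ratio. They were read from the mouse genome GRCm38, plus strand, with 30 bases on each side in lower case and the bases common to both coding regions in capitals; the sources used here do not name the build behind the deposited counts.
mt-Atp8 and mt-Atp6, chrM:7897-7999: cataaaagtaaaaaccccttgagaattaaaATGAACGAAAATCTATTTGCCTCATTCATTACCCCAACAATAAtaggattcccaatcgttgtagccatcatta
mt-Nd4l and mt-Nd4, chrM:10137-10203: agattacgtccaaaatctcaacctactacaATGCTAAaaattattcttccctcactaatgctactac
The capitals open with the ATG of the second gene and end in the last codon of the first, over 43 bases in the first pair and 7 in the second. How reads over both genes were assigned is not stated.

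The ratio of mt-Atp8 to mt-Atp6 UMIs in T cells was 0.0261 in active, 0.0852 in onset, 0.0850, 0.0251 and 0.0552 in vehicle on days 2, 3 and 4, and 0.177, 0.0677 and 0.109 under PPCA. The span was 7.08-fold, and the libraries with the highest mt- shares, vehicle day 3 and active, had the lowest ratios. PPCA was above vehicle on 3 of 3 days (log2 ratios averaging 1.16, SD 0.24, n = 3), although the arms overlap. The ratio of mt-Nd4l to mt-Nd4 spanned 4.23-fold in the same direction, from 0.135 in active and 0.154 in vehicle day 3 to 0.572 in PPCA day 2, with day log2 ratios averaging 0.79 (SD 0.33).

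These ratios differed more between libraries than between gates or states of 1 library. CD8 and CD4 cells of the same library differed in the mt-Atp8 to mt-Atp6 ratio by log2 values from -0.11 to 0.17, and effector-type and naive-type cells by -0.08 to 0.29 in CD8 and by 0.01 to 0.23 in CD4 cells. The CD4 values lay above 0 in 8 of 8 libraries (mean 0.10, SD 0.07). For mt-Nd4l to mt-Nd4 the values were -0.05 to 0.07 between gates, -0.09 to 0.16 between CD8 states and -0.16 to 0.19 between CD4 states. Both genes of each pair were among the 12 mt- genes that fell in effector-type cells of each gate. mt-Co3 to mt-Co1, which lie on separate mRNAs, spanned 2.66-fold in the opposite sense, from 0.463 in PPCA day 2 to 1.23 in vehicle day 3.

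**Figure D5:**
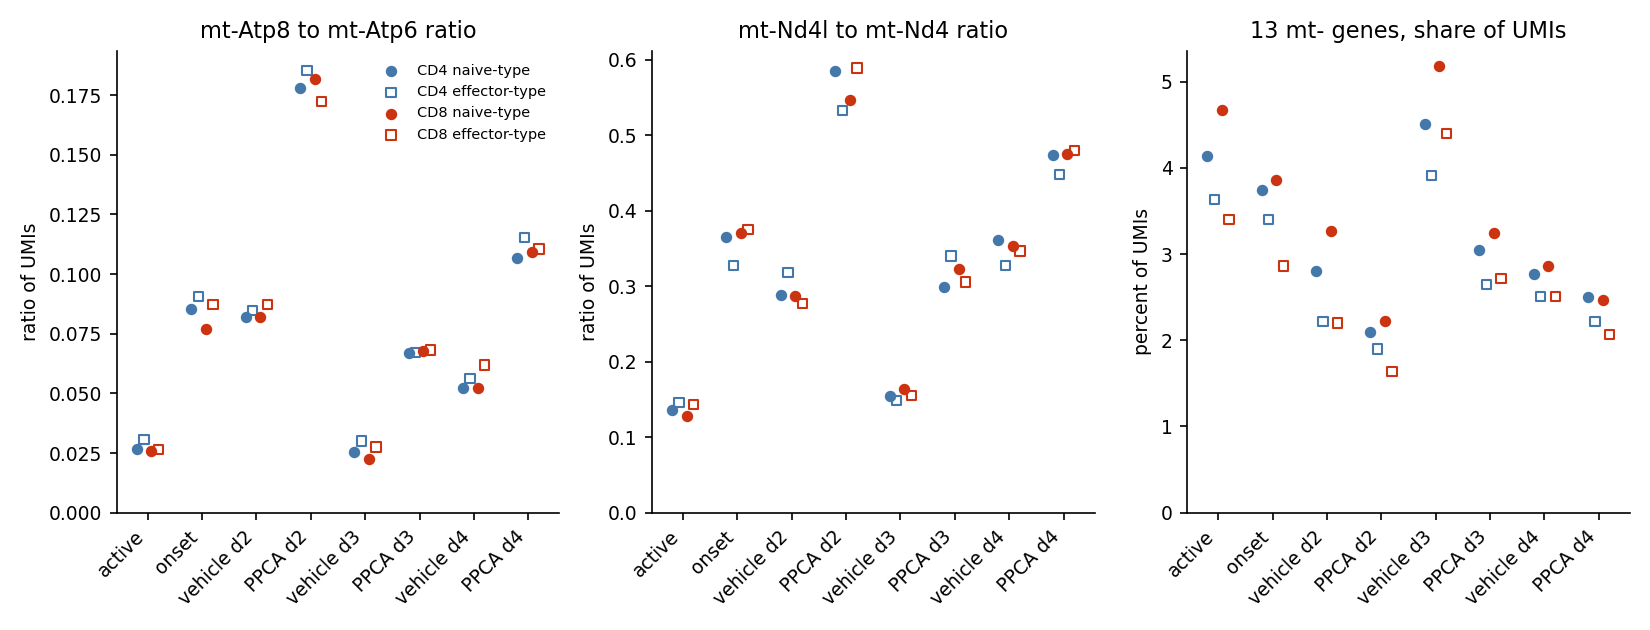
Ratio of UMIs of mt-Atp8 to mt-Atp6 (left) and mt-Nd4l to mt-Nd4 (middle), and percent of UMIs from the 13 mt- genes (right), per library, for naive-type (filled circles) and effector-type (open squares) CD4 (blue) and CD8 (red) cells. Points of 1 library cluster in the left and middle panels while libraries lie far apart, and active and vehicle day 3 are low in those panels and high in the right one.

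The active and onset libraries are 1 each, so their values have no replicate check. The mt- share was 4.26% in active and 3.74% in onset (log2 ratio 0.19), and the nuclear subunits had 1.54% and 1.73% (-0.17). Of 78 nuclear subunits, 67 were lower and 11 higher in active, with a median log2 ratio of -0.18. They ranged from -0.48 for Ndufab1, the acyl carrier protein of complex I, to 0.20 for Sdha, the catalytic subunit of complex II. These ratios of CPM are unscaled, and no share of all genes by direction is given beside the 67 and 11. The split is therefore not read as a trait of the members. No nuclear subunit moved by 1.5-fold. Among members averaging at least 10 CPM, mt-Nd3 was at least 1.5-fold higher in active (521 against 245 CPM), beside 2.14% of genes. mt-Atp8 (268 against 745 CPM), mt-Nd4l (286 against 710 CPM) and mt-Nd6 (73.4 against 112 CPM) were at least 1.5-fold lower, beside 1.75%. The erythroid transcripts of the active library, given above, moved with these values and their part was not tested.

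Promoters of nuclear subunits were searched for motifs of factors known to drive respiratory genes. RefSeq promoters (GRCm38.p6, 250 bases before to 50 after the start) matched 64 of the 78 nuclear subunits by symbol. The NRF1 motif, a palindrome shown in capitals, was held by 5 of 64 (7.81%) on either strand, beside 1.07% of 27025 genes with a RefSeq promoter. The YY1 motif was held by 4 (6.25% beside 0.755%), the ETS motif CCGGAAGT by 5 (7.81% beside 4.31%) and the ESRRA motif TCAAGGTCA by 2 (3.12% beside 0.466%). A match describes letters and is not shown to be a bound site. The stretches upstream of the start that hold the NRF1 motif, in capitals, are shown so that members of complexes I, IV and V can be compared.
Atp5k, chr5:108434420-108434469, minus strand: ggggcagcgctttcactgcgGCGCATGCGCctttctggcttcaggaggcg
Cox6a1, chr5:115349091-115349140, minus strand: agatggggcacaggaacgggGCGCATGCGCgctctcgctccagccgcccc
Atp5g2, chr15:102671060-102671109, minus strand: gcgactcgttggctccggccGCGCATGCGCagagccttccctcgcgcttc
Ndufa11, chr17:56717682-56717731, plus strand: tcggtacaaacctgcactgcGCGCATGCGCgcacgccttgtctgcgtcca
Around the shared core the letters differ. In effector-type CD8 cells Atp5k rose by 0.14 (SE 0.06, adjusted p = 0.0359, edgeR) and Atp5g2 fell by 0.20 (SE 0.05), while Cox6a1 (0.04, SE 0.06) and Ndufa11 (0.11, SE 0.06) did not pass. In CD4 cells Atp5g2 fell by 0.23 (SE 0.06) and the other genes did not pass. With library totals alone the calls were others: Atp5k, Cox6a1 and Ndufa11 rose in both gates, by 0.17 to 0.32, and Atp5g2 did not pass (-0.03 in CD8 and 0.02 in CD4 cells).

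The authors' deposited table of marker genes for 7 clusters holds 13 rows of members among 2100, each a log2 fold change of at least 0.25 against the other cells. In the authors' deposited table, 9 of the 13 belong to the cluster named CD8 TRM TEM, which holds 702 of the 2100 rows, led by Cox5a (0.45) and Cox8a (0.41), with Ndufb7 (0.33) and Ndufa5 (0.29) among them. The authors' deposited table lists mt-Nd3 for CD8 TCM (0.29), Uqcrq for CD4 Th0 (0.30), and Sdhaf1 for CD4 Th0 (0.36) and CD4 Treg (0.62). It comes from the same libraries, so it is no independent evidence for the values above.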

How the data were processed

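The deposited matrices hold UMI counts per gene and cell barcode, made by the authors with Cell Ranger (6.1.2 per the submitters' processing notes, 6.0.0 per the file headers); the sources used here do not state the genome build, the annotation or the handling of multi-mapping and overlapping reads. Genes with near-identical copies, and mt-Nd5 and mt-Nd6, which overlap on opposite strands, are therefore uncertain. The authors' deposited marker table gives log2 fold changes and p-values per cluster, per the file headers. No column lacked a sample (0). Cells with at least 500 genes were kept, 6429 doublets (the barcodes with the highest Scrublet scores in scanpy 1.11.5, in a share that grows with their number) and cells with more than 1 UMI over a list of B-cell and myeloid genes (Cd79a, Ms4a1, Lyz2, Csf1r and C1qa among them) were removed, and no limit was set on mt- UMIs because the mt- genes are members. UMIs were summed per library and gate. edgeR 4.0.16 (R 4.3.3; TMM, filterByExpr, quasi-likelihood test, Benjamini-Hochberg over all genes, threshold 0.05) was fitted with the library as a block between gates and states, and the day label as a block for treatment. Across genes, deviations from the arm means correlated between the libraries of a day (r = 0.370, 0.433 and 0.537 in T cells on days 2, 3 and 4). Each arm mean rests on 3 libraries and no r of unlike days was computed, so these values do not establish that the day pairs the libraries. DESeq2 1.42.0, limma 3.58.1, other scalings, cell filters and omissions of libraries were alternatives. Named were all mt- genes, the most counted subunit of each complex, the subunit c genes, isoforms of other tissues, the 5 highest and 5 lowest called members of at least 10 CPM per comparison (or, with fewer than 3 calls, the 3 lowest p), and at most 4 called genes per other list; others named were chosen after their values were seen. The members and all lists were chosen with earlier results of these data known. No protein sequences were used here. The naive-cell list of the state gates and the list of B-cell and myeloid genes are named in part, and the rest of each is not reported here.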

Additional observations from a re-analysis of the deposited data

Results flagged for a closer look

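Members with a state effect that differed between the gates, by a test of that difference itself, were Cox5a and Ndufa5. The change from naive-type to effector-type cells was larger in CD8 than in CD4 cells by 0.374242 on the log2 scale for Cox5a (higher in effector-type cells of 8 of 8 libraries in each gate) and by 0.354179 for Ndufa5 (higher in 8 of 8 libraries in CD8 and in 7 of 8 in CD4 cells). The adjusted p-values were 0.00284 and 0.0421 (edgeR, library and gate as blocks). Cox5a kept its call in 17 of 18 alternatives and Ndufa5 in 9 of 18.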

How the results depend on the processing

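Libraries are few, the day pairs leave 2 residual degrees of freedom, and effector-type CD4 cells (61 to 227 per library) set the precision of that comparison. Where 50 members were called between CD8 and CD4 cells, DESeq2 and thinned cells each gave 29, the libraries without Y-linked transcripts 16, naive-type cells alone 13 and effector-type cells alone 5, beside the shares of all genes given above. In effector-type against naive-type cells 49 members were called in CD8 and 43 in CD4 cells. Separate fits of the libraries without Y-linked transcripts called 32 and 23, and of those with them 33 and 28, beside the shares of all genes given above. Without the replicate block, calls fell to 3 (CD8 against CD4), 19 (CD8 states), 16 (CD4 states) and 0 (difference of the states between gates), beside 17.4%, 29.4%, 27.7% and 3.84% of all genes; the pairing by day changed no count in the treatment comparisons, which stayed at 0. PPCA calls in T, CD4 and CD8 cells rose from 0 to 7, 8 and 7 with DESeq2, to 9, 9 and 9 with no low-count filter (beside 0.717%, 0.847% and 0.788% of all genes), to 8, 6 and 10 with Y-linked transcripts as a factor (beside 1.51%, 1.02% and 1.62%), and to 1 in CD8 cells with library totals alone (beside 0.129%). With libraries left out the PPCA calls ran over 0 to 6, 0 to 4 and 0 to 12, beside at most 0.497%, 0.487% and 3.16% of all genes. The difference of the states between gates had 4 members with library totals alone (3 of them mt- genes), 18 with no low-count filter (beside 5.82% of all genes), 1 with cells under 10% mt- UMIs (beside 8.4%) and 1 to 3 with a library left out (beside 6.91% to 8.03%). The directions of single genes that turned were as follows. Between CD8 and CD4 cells with library totals alone mt-Co1 was -0.0297, mt-Cytb -0.0297, mt-Atp6 -0.0256 and mt-Atp8 -0.0110. With thinned cells mt-Co1 was -0.0153, mt-Cytb -0.0167 and mt-Atp6 -0.0177. In libraries without Y-linked transcripts mt-Co1 was -0.00963, mt-Cytb -0.00762, mt-Atp6 -0.00194 and mt-Atp8 -0.00767. With cells under 5% mt- UMIs mt-Co1 was -0.00358, and with 1 library left out mt-Cytb ran from -0.00258 (without vehicle day 3) to 0.0262. Within effector-type cells mt-Co1 was -0.0645, mt-Atp8 -0.0525, mt-Cytb -0.0238, mt-Nd6 0.0502, Ndufa3 0.0256 and Sdhb 0.0596, and within naive-type cells mt-Nd6 was 0.104. mt-Nd6 in effector-type against naive-type cells turned to 0.0141 (CD8) and 0.104 (CD4) with library totals alone. The active to onset log2 ratio of the mt- share, 0.19, became 0.18 (cells under 10% mt- UMIs), 0.11 (under 5%), 0.19 (gate of Cd3 and receptor genes alone) and 0.18 (thinned); that of the nuclear subunits became -0.16 under 5%. The vehicle mean of the nuclear share was 1.69% over all nuclear members against 1.66%. The cause of these changes was not tested.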
